A study of Mus musculus with 2 samples.

Results

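The genes described here encode mitochondrial solute carriers, the Slc25 family. All genes of the RefSeq table whose symbol starts with Slc25 were taken, except Slc25a11, Slc25a12, Slc25a13, Slc25a28, Slc25a37 and Slc25a38, which left 42 of 48 such symbols, among 20659 genes with a named probe on the array. Of the 42 carriers, 41 had a named probe (49 probes in all), and the exception was the pseudogene Slc25a5-ps. On both arrays 23 carriers were measured, which means that a probe passed the scanner's flag for signals well above background and was not saturated. They were 23 of the 41 carriers with a named probe, while 49.5% of all genes with a named probe were measured. Over all 42 carriers, the pseudogene without a probe included, the share was 54.8%.

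SoNar is a genetically encoded fluorescent sensor that reports the cytosolic balance of NADH and NAD+. SoNar-high and SoNar-low blood cells of C57BL mouse fetal liver at E13.5 (the strain is given as C57BL/6 for the SoNar-high sample and as C57BL for the SoNar-low sample) were separated by the sensor's fluorescence ratio (405 nm over 488 nm). The labels name no allele or treatment beyond the sensor, and they do not say how many embryos were pooled or how the sensor was delivered. Total RNA of each population was hybridised in 1 colour to 1 Agilent array, so there were 2 arrays, no replicates and no test. The file headers give the same scan for both arrays. The comparison asks which carriers differ in RNA level between the populations that the sensor sets apart.

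Carriers of this family sit mostly in the inner mitochondrial membrane and exchange nucleotides, phosphate, carboxylates, amino acids and cofactors between the cytosol and the matrix. They are made in the cytosol and inserted through the TIM22 import route. In red cell precursors, mitochondria supply heme and are removed as the cells mature, and carriers of the family move substrates of heme synthesis as well as NAD and reducing equivalents across the inner membrane.

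No carrier measured on both arrays differed by 2-fold between the populations, and lower values in SoNar-high cells were more frequent than higher ones. The largest negative differences belonged to Slc25a16, Slc25a4, Slc25a32, Slc25a36, Slc25a40 and Slc25a5, which include both measured ADP/ATP exchangers. The largest positive ones belonged to Slc25a45 and to Slc25a44, a carrier of branched-chain amino acids. A difference is the log2 signal of the SoNar-high array minus that of the SoNar-low array, after each array's processed signal was divided by its 75th percentile. That percentile was 187 units for SoNar-high and 222 units for SoNar-low, so a processed signal that is slightly lower on the SoNar-high array can still give a difference near 0. The error given with a difference is the scanner software's own error estimate, combined over the arrays. It is an estimate for the spots and does not cover the spread between embryos, sorts or labelling reactions. For bright carriers such as Slc25a4, Slc25a5 and Slc25a17 it was nearly constant at 0.20, while repeated spots gave a median SD of 0.15.

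Of the 23 measured carriers, 0 were at least 2-fold higher (5.28% of 10223 measured genes were) and 0 at least 2-fold lower (4.44% of all). At 1.5-fold, 2 carriers were higher, against 13.8% of all genes, and 9 of 23 were lower, against 17.7% of all. A negative difference was found for 17 carriers (73.9%), while 55.8% of all measured genes had one. The median of the carriers was -0.30, with the middle part of the values between -0.75 and 0.02 (quartiles), and the median of all measured genes was -0.08. The carriers' median minus that of all genes was -0.22, and this gap depended on the processing. The normexp setting differs in its input (the median spot signal) and its offset as well as in the background correction. With it the median was -0.035 for the carriers and -0.053 for all genes. At least 1.5-fold lower were then 3 of 23 carriers, against 13.2% of all genes, so the excess of lower carriers was absent under that setting. The gap was -0.072 without the filter on dim probes, -0.083 with a minimum signal of 100, -0.12 after quantile normalization and in the deposited value table, and -0.15 after loess. Taking the 75th percentile over detected probes raised every gene by 0.18 and left the gap at -0.22, with the median of all genes at 0.10, that of the carriers at -0.13 and 12 of the 23 carriers below 0.

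**Figure D1:**
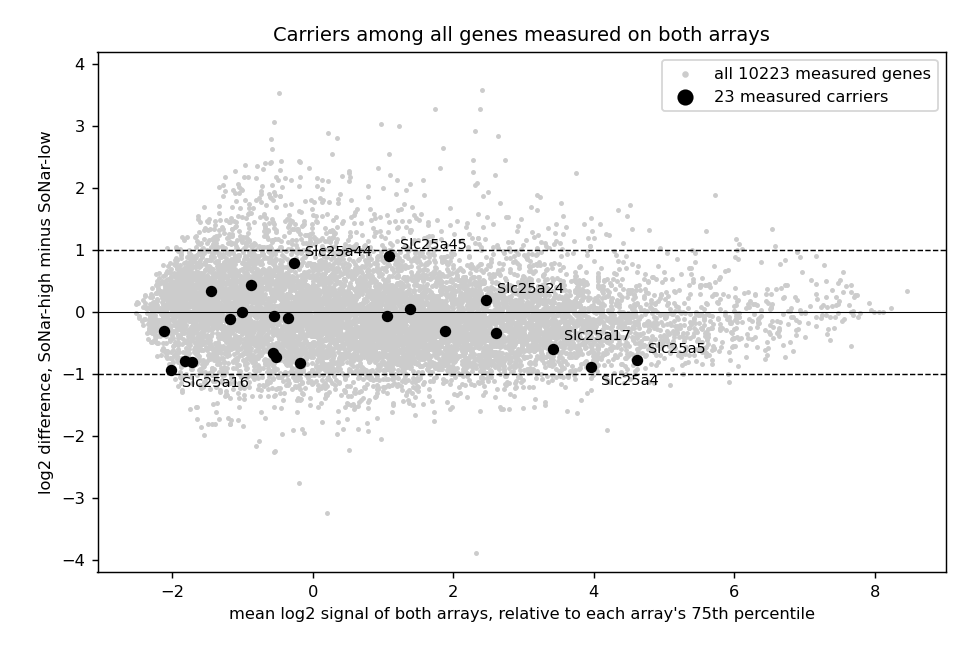
Each point is a gene measured on both arrays, with its mean log2 signal relative to each array's 75th percentile on the horizontal axis and its log2 difference (SoNar-high minus SoNar-low) on the vertical axis. Grey points are all 10223 genes, black points the 23 carriers, and dashed lines mark 2-fold. All carriers lie inside the dashed lines, between -0.94 (Slc25a16) and 0.90 (Slc25a45).

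The ADP/ATP carriers exchange cytosolic ADP for matrix ATP and so hand mitochondrial ATP to the cell. Slc25a4, also known as Ant1, had a processed signal of 2123 units on the SoNar-high array and 4689 units on the SoNar-low array. Slc25a5, or Ant2, had 3497 units on the SoNar-high array and 7109 units on the SoNar-low array. Both were brighter on the SoNar-low array, and each was well above background on both arrays. After scaling, Slc25a4 was 1.85-fold lower (log2 difference -0.89, error 0.20) and Slc25a5 was 1.71-fold lower (-0.77, error 0.20). Under 9 settings of background correction, scaling, filter and choice of probe, the main one included, the difference of Slc25a4 lay between -0.89 and -0.68. That of Slc25a5 lay between -1.04 and -0.55, and its lowest value, past 2-fold, came from normexp. Not all settings are separate checks. A carrier with 1 measured probe and over 100 units on both arrays keeps its main value without the filter, with the minimum signal and with the median over probes. Quantile normalization and the value table gave nearly equal values (-0.70 and -0.68 for Slc25a4). The ranges given here and below thus rest on fewer distinct values than 9. Slc25a31, the germ-cell form, was not well above background on either array. These carriers are close copies of one another, and Slc25a5 has a pseudogene copy, Slc25a5-ps, so a probe may bind more than 1 of their transcripts. How far it does was not tested.

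The promoters of the ADP/ATP pair are shown because both genes were lower in the same population, and those of Slc25a16 and Slc25a45 because these carriers had the lowest and the highest difference. The sequences are from RefSeq, build GRCm38.p6, 5′ to 3′ on the gene's strand, from 250 bases before to 50 bases after the gene's start. They lie at chr8:46211013-46211312 (minus strand, Slc25a4), chrX:36795347-36795646 (plus strand, Slc25a5), chr10:62920383-62920682 (plus strand, Slc25a16) and chr19:5877572-5877871 (plus strand, Slc25a45). Capitals mark matches, on either strand, to any of the motifs spelled out below.
Slc25a4: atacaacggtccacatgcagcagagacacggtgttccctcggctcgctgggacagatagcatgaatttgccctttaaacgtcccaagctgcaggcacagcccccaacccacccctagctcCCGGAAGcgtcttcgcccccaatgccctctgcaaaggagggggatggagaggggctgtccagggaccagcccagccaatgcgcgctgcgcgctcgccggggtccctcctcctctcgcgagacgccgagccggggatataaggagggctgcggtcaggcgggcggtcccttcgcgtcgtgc
Slc25a5: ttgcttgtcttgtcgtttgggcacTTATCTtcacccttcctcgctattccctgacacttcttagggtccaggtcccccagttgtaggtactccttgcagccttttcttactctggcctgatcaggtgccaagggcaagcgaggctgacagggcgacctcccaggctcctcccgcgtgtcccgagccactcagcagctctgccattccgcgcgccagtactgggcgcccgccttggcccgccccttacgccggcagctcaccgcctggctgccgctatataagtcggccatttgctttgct
Slc25a16: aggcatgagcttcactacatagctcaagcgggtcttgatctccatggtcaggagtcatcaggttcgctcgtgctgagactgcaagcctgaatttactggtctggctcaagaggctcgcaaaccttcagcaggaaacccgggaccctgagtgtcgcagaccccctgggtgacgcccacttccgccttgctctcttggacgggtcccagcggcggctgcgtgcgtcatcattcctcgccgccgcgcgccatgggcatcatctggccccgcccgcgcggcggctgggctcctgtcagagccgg
Slc25a45: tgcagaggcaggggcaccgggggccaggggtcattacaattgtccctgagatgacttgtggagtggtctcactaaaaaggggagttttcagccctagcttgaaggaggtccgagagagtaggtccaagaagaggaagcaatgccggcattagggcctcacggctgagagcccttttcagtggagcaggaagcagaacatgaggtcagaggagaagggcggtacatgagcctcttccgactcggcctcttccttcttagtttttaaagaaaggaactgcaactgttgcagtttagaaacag

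The motifs were AGATAA or TGATAA for GATA factors, CCGGAAG for ETS factors, GCGCATG for NRF1 and CCNCACCC for Kruppel-like factors, where N is any base. Both strands were searched, and no matches overlapped in the carriers. A promoter was listed for 31 of the 42 carriers, and the first listed start was used for the 7 carriers with several. The Slc25a4 window held an ETS match and the Slc25a5 window a GATA match on the opposite strand, while the windows of Slc25a16 and Slc25a45 held none of these letters. Across the 31 carriers, 6 windows had the ETS letters (19.4%), against 9.12% of 27025 genes with a listed promoter. The 6 were those of Slc25a3, Slc25a4, Slc25a17, Slc25a20, Slc25a25 and Slc25a54. The GATA letters stood in 3 carrier windows (9.68%, against 19.0% of all), the NRF1 letters in 2 (6.45%, against 4.04%) and the Kruppel-like letters in 5 (16.1%, against 16.4%). The windows with the NRF1 letters were those of Slc25a31 and Slc25a54, which were not well above background on either array. Carrier windows had a median of 60.7% G and C, against 52.7% over all genes.

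Carriers of phosphate and of magnesium-bound ATP differed by less than 1.5-fold. Slc25a3, which brings phosphate (and copper) into the matrix for ATP synthesis, had 1015 units on the SoNar-high array and 1524 units on the SoNar-low array, a difference of -0.33 (error 0.20). Its second probe gave -0.36, and its values stayed below 0 under all 9 settings (-0.35 to -0.13). Slc25a24, a calcium-regulated ATP-Mg/phosphate exchanger, had 1105 units on the SoNar-high array and 1148 units on the SoNar-low array. Its difference was 0.20, which is within its error of 0.20, and it turned to -0.035 after normexp. The related Slc25a25 had -0.07 (error 0.24), with its second probe at 0.00. Slc25a23 and Slc25a41, of the same branch, were not well above background on either array.

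Among carboxylate carriers, the citrate exporter Slc25a1, which supplies cytosolic acetyl units for lipid synthesis, was dimmer on the SoNar-high array. It had 101 units there and 189 units on the SoNar-low array. The difference was -0.66 (error 0.24), and it lay between -0.74 and -0.32 under the 9 settings. The dicarboxylate carrier Slc25a10 was not well above background. Slc25a21, the oxodicarboxylate carrier, passed the background flag on the SoNar-high array alone, with 41.3 units there and 15.9 units on the SoNar-low array. After scaling, its SoNar-high signal was 1.33 times the dimmest signal that passed the flag on the SoNar-low array. That floor is not strict, since a second Slc25a26 probe at 42.6 units failed the flag on the same array. The value is therefore not a lower bound on the difference of Slc25a21.

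The carriers named for their likeness to uncoupling proteins showed the same sign. Slc25a14 had 101 units on the SoNar-high array and 199 units on the SoNar-low array, a difference of -0.72 (error 0.23; -0.80 to -0.55 under the 9 settings). Slc25a30 was dim, at 38.9 units on the SoNar-high array and 57.1 units on the SoNar-low array. Its difference of -0.30 was within its error of 0.40. Slc25a27 was not well above background on either array. Uncoupling proteins whose symbols lie outside the family name went the other way or were near 0. Ucp2 had 157 units on the SoNar-high array and 118 units on the SoNar-low array, a difference of 0.67 (0.39 to 0.84 under the settings). Ucp3 had 0.13, within its error of 0.31 and with a sign that changed with the setting, and Ucp1 was not well above background.

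Amino acid and glutathione carriers pointed in both directions. Slc25a44, which imports branched-chain amino acids, had 203 units on the SoNar-high array and 141 units on the SoNar-low array, a 1.72-fold higher level after scaling (0.78, error 0.23). Its difference was above 0 under all 9 settings (0.54 to 0.96), although its second probe was not well above background on either array. Slc25a40, a paralog of the glutathione carrier Slc25a39, had 40.1 units on the SoNar-high array and 83.0 units on the SoNar-low array. That difference of -0.80 had an error of 0.37 and moved between -1.07 and -0.35 with the setting, as did those of other dim carriers. Slc25a22, a glutamate carrier, had 141 units on the SoNar-high array and 180 units on the SoNar-low array, a difference of -0.10 within its error of 0.23. It was above 0 under 2 of the 9 settings.

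The other members of that group gave little signal. Slc25a39, known for its part in glutathione import and in heme synthesis of red cell precursors, had 1 probe, at 9.24 units on the SoNar-high array and 8.66 units on the SoNar-low array. Neither is well above background, so the array gave no difference for it. The ornithine carriers Slc25a2 and Slc25a15 and the glutamate carrier Slc25a18 were not well above background either. Slc25a29, a carrier of basic amino acids, passed the background flag on the SoNar-high array alone, at 31.7 units there and 34.9 units on the SoNar-low array, so the array gave no difference for it.

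All 9 carriers of nucleotides, vitamins and cofactors were measured on both arrays. Their median was -0.11, a value that turned positive when scaled on detected probes (0.06), and their differences ran from -0.94 to 0.43. Slc25a32, which carries folate and FAD, had 123 units on the SoNar-high array and 260.2 units on the SoNar-low array, a 1.77-fold lower level (-0.83, error 0.22). Its difference stayed below 0 under all 9 settings (-0.85 to -0.48). Slc25a17, a carrier of coenzyme A, FAD and NAD in peroxisomes rather than mitochondria, had 1621 units on the SoNar-high array and 2938 units on the SoNar-low array. It was 1.52-fold lower (-0.61, error 0.20), with values between -0.65 and -0.42 under the settings.

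The dim members of this group moved most with the setting. Slc25a16, linked to coenzyme A in mitochondria, had 33.2 units on the SoNar-high array and 76.2 units on the SoNar-low array. Its difference of -0.94 was the most negative of all measured carriers, with an error of 0.38 and a range from -1.27 to -0.35. Slc25a36, a pyrimidine nucleotide carrier, had 43.0 units on the SoNar-high array and 89.6 units on the SoNar-low array, a difference of -0.81 (error 0.34; -1.05 to -0.14). Both were brighter on the SoNar-low array under each setting in which they were measured, but how much brighter depended on the setting. The other pyrimidine nucleotide carrier, Slc25a33, had 77.3 units on the SoNar-high array and 72.9 units on the SoNar-low array, a difference of 0.34 (error 0.30; 0.16 to 0.51). The pyrimidine nucleotide carriers thus had opposite signs.

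Slc25a51 imports NAD+ into mitochondria. It had 497 units on the SoNar-high array and 573 units on the SoNar-low array. After scaling the difference was 0.05, within its error of 0.21, and its second probe gave -0.03. Under the 9 settings it lay between 0.01 and 0.22. Slc25a42, which brings coenzyme A into the matrix, had 118 units on the SoNar-high array and 104 units on the SoNar-low array (0.43, error 0.26; 0.32 to 0.61). Slc25a26, which imports S-adenosylmethionine, had -0.11. This lay within its error of 0.27 and changed sign with the setting.

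Slc25a20, the carnitine/acylcarnitine carrier of fatty acid oxidation, had 92.7 units on the SoNar-high array and 111 units on the SoNar-low array. After scaling the difference was -0.0025 (error 0.25; -0.12 to 0.18 under the settings). Of the 5 enzymes of the carnitine shuttle, 3 were measured. None of the 3 differed by 2-fold, where 5.28% of all measured genes were at least 2-fold higher and 4.44% lower. Cpt1a, which loads fatty acids onto carnitine at the outer membrane, had 0.37, Cpt1b had -0.11 (-0.50 to 0.06 under the settings) and Cpt2, which unloads them in the matrix, had -0.40.

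Among carriers whose substrate is unsettled or that do other work, Slc25a45 had the largest positive difference. It had 541 units on the SoNar-high array and 345 units on the SoNar-low array, a 1.87-fold higher level (0.90, error 0.21). Under the 9 settings it lay between 0.69 and 1.08 and was past 2-fold under 4. Slc25a46, an outer membrane protein of mitochondrial fusion and fission, had 618 units on the SoNar-high array and 915 units on the SoNar-low array (-0.31, error 0.20; -0.47 to -0.14). Slc25a47, a carrier known from liver, passed the background flag on the SoNar-high array alone. It had 45.3 units there and 34.1 units on the SoNar-low array. After scaling, its SoNar-high signal was 1.46 times the dimmest signal that passed the flag on the SoNar-low array, again not a lower bound. Hepatoblast markers were brighter on the SoNar-high array (summed signal before scaling 9249 units, against 3593 units on SoNar-low). The part of hepatoblasts in the Slc25a47 signal was not tested. Slc25a34, Slc25a35, Slc25a43, Slc25a48, Slc25a53 and Slc25a54 were not well above background on either array.

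**Figure D2:**
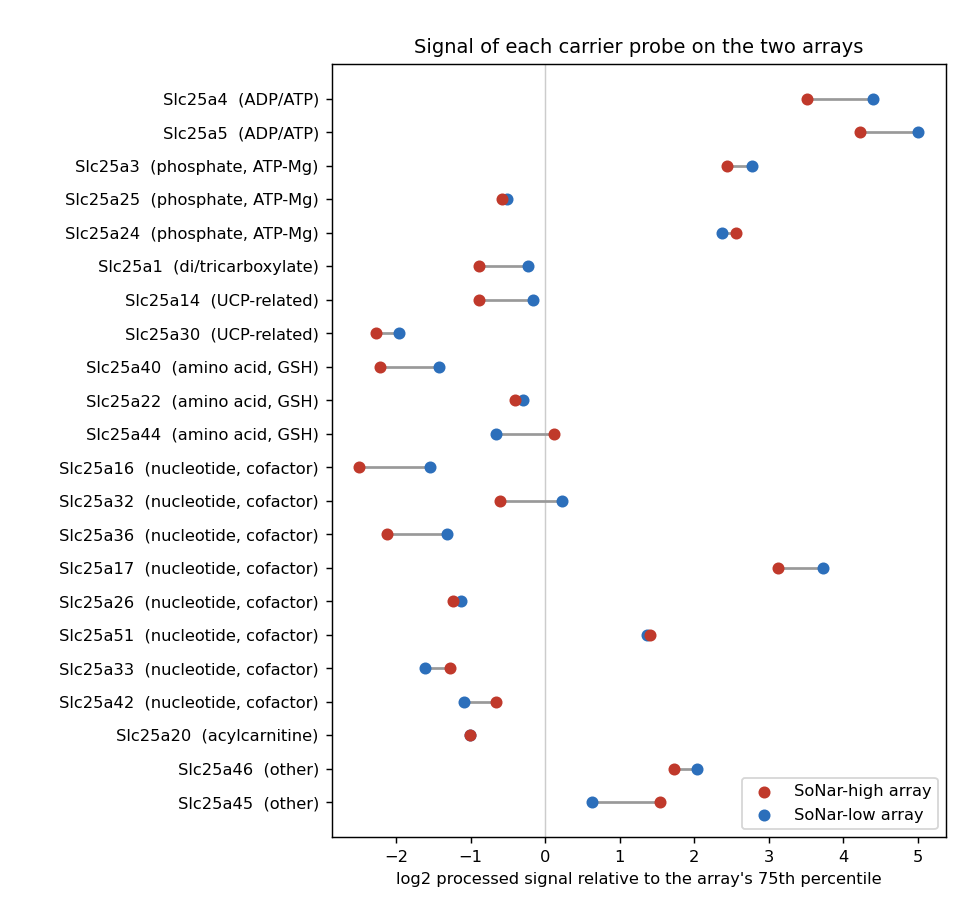
Each of the 22 rows is a carrier measured on both arrays, grouped by role, and the horizontal axis is the log2 processed signal of its probe relative to that array's 75th percentile, with the SoNar-high array in red and the SoNar-low array in blue. Only the points within a row compare, and the red point lies left of the blue one in 16 of 22 rows.

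Read against the scanner errors, 6 of the 23 measured carriers differed by more than 3 times their error. Higher in SoNar-high cells were 2, Slc25a45 and Slc25a44, where 10.3% of all measured genes were higher by that rule. Lower were 4, Slc25a4, Slc25a5, Slc25a14 and Slc25a32, where 14.4% of all genes were lower. Both counts, out of 23, were thus near the shares of all genes. Slc25a4 and Slc25a45 were the carriers at least 1.5-fold different in 1 direction under every setting. How many of all measured genes were so was not counted, so this rule does not set them apart from other genes. Of the 23 carriers, 12 were below 0 under every setting in which they were measured, 5 were above 0, and 6 changed sign. The same tally was not made for all genes, of which 55.8% were below 0 in the main setting. The 3 carriers with more than 1 measured probe had probes 0.07 apart at the median, and the second probes of Slc25a26, Slc25a33, Slc25a44 and Slc25a46 were not measured on both arrays.

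**Figure D3:**
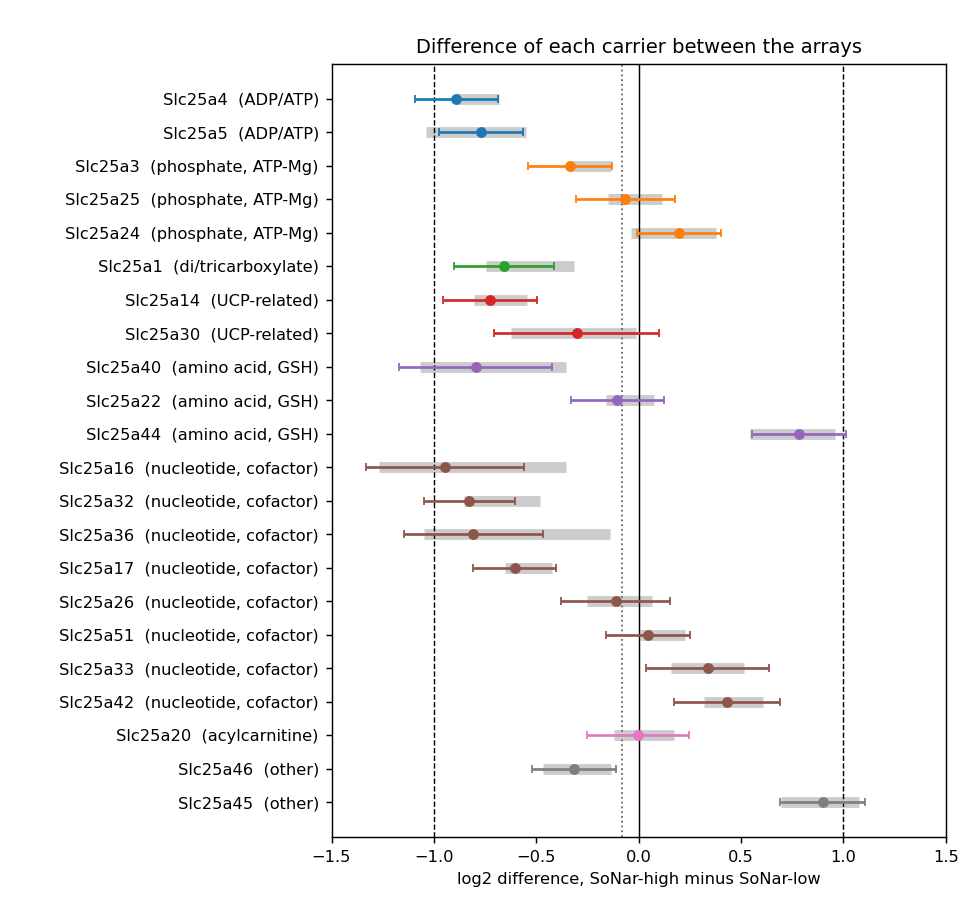
Each of the 22 rows is a carrier measured on both arrays, and the horizontal axis is its log2 difference, SoNar-high minus SoNar-low. Points are the main values with the scanner error as bars, colours mark the roles, grey bands span the 9 settings, dashed lines mark 2-fold and the dotted line is the median of all genes (-0.08). The bands of Slc25a4 (-0.89 to -0.68) and Slc25a45 (0.69 to 1.08) keep to 1 side of 0, whereas those of the dim Slc25a16 and Slc25a36 are wide.

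Of the 18 carriers with a probe that were not measured on both arrays, 3 passed the background flag on the SoNar-high array alone and 0 on the SoNar-low array alone. Among all genes without such a measurement the shares were 15.5% and 1.49%, and 0 of the 3 were at least 2-fold above the dimmest signal that passed the flag on the other array, as 1.94% of those genes did on the SoNar-high side and 0.326% on the SoNar-low side. Negative controls varied less on the SoNar-high array (SD 3.64 units) than on the SoNar-low array (SD 5.82 units), and the part of this in the unequal shares was not tested. The remaining 15 carriers gave between 6.23 and 33.7 units on the SoNar-high array and between 7.65 and 38.6 units on the SoNar-low array.

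Genes of the machinery that places carriers in the inner membrane were also more often below 0 than above it. Of 10 genes of the TIM22 route 9 were measured, none differed by 2-fold (5.28% of all measured genes were higher and 4.44% lower), and 7 were below 0, as 55.8% of all genes were, with a median of -0.55 (-0.55 to -0.37 under the settings, with 6 to 8 genes below 0). The acylglycerol kinase Agk, a subunit of the TIM22 complex, had 350.1 units on the SoNar-high array and 761 units on the SoNar-low array, a difference of -0.87. The small chaperone Timm9 had -0.80 and Timm8a1 had -0.92, although another probe of Timm8a1 gave -0.05. Timm22, the channel itself, had -0.57. The partner chaperones Timm10 (-0.01, with its other probe at -0.65) and Timm10b (0.01) were near 0, and Timm8b had 0.17.

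So were other transporters of the mitochondrial membranes. All 8 sideroflexins and porins were measured, and none differed by 2-fold (5.28% of all measured genes were higher and 4.44% lower). Of the 8, 7 were below 0 (55.8% of all genes were), with a median of -0.35. Under the settings the median ran from -0.38 to -0.17, with 6 or 7 genes below 0. Vdac3, an outer membrane porin, had 1204 units on the SoNar-high array and 2496 units on the SoNar-low array, a difference of -0.80. Vdac1 had -0.41 and Vdac2 had -0.35. Sfxn1, a mitochondrial serine transporter, had -0.41, with its other probe at 0.30, and Sfxn5, the exception in sign, had 0.52.

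The populations also differed in markers of cell types, and the carriers' values stand beside these. All 6 erythroid markers were measured and higher by their brightest probe, with summed processed signals of 7919 units on the SoNar-high array and 4673 units on the SoNar-low array. Alas2 alone held 5312 units of the SoNar-high sum and 2678 units of the SoNar-low sum. Tfrc had only 0.25, with its other measured probe at -0.18. All 6 macrophage markers were higher (11672 units in SoNar-high and 2054 units in SoNar-low), as were all 4 measured of 6 hepatoblast markers. The 5 measured of 6 endothelial markers were above 0 (3747 units in SoNar-high and 1011 units in SoNar-low), Pecam1 only by 0.01. All 6 B lymphoid markers were lower (3137 units in SoNar-high and 12489 units in SoNar-low), as were the 5 measured of 6 stem and progenitor markers (2592 units in SoNar-high and 4541.5 units in SoNar-low), although Pax5 (-0.05) and Kit (-0.15) turned positive under some settings, scaling on detected probes among them. Ttr and Tek passed the background flag on the SoNar-high array alone, and Apoa1 and Mecom on neither. In such bulk RNA, fewer cells of a type and less RNA per cell cannot be told apart, and the part of the mix of cells in the carriers' differences was not tested.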

How the data were processed

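Per the file headers, the authors' intensities (a processed signal with its error, and median spot and background signals) are Agilent Feature Extraction output, the processed one background-subtracted and detrended within each array. The headers name version 11.0.1.1 and the submitters' processing notes name 9.1, without a way to decide between them. A deposited value table is on the log2 scale, as its match to the scanner signals shows, and how it was normalized is not stated. Its columns have the same median (4.80) and differ by at most 0.000544 once sorted, and its differences followed the scanner's (r = 0.966 across measured probes, which are not replicates), so its direction was settled and it served as an alternative.

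Control and outlier spots (225 on SoNar-high, 135 on SoNar-low) were left out. From the log2 processed signal of 43020 non-control spots the array's 75th percentile was subtracted, and spots were averaged per probe (39429 probes). Well above background were 49.4% of spots on SoNar-high and 42.4% on SoNar-low, and 0 were saturated. Probes were named through transcript accessions in the RefSeq table of GRCm38.p6 (27234 matched 1 gene, 0 several, 12195 none), and the brightest measured probe stood for its gene. Spots of 213 probes printed 10 times gave a median SD of 0.15 for a log2 difference. The number of arrays limits the precision.

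Genes were counted from 2-fold, with 1.5-fold as an alternative. The others were normexp (offset 50, limma 3.58.1, on the median signal), the percentile of detected probes, quantile normalization, loess (span 0.3), the value table, no filter, a minimum signal of 100 and the median over probes. Every carrier but 1, whose own values are not reported here although it enters the counts and medians, was named, with signals on both arrays for the brightest and the most different of each role and any past 2-fold. The counting was tested on simulated data. The members and lists were chosen with earlier results of these data known.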

Additional observations from a re-analysis of the deposited data

How the results depend on the processing

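No single carrier at least 2-fold different in the main setting could reverse, because there was none. The count at least 2-fold higher was 0, and it was 1 (Slc25a45) with the percentile of detected probes, quantile normalization, loess or the deposited value table. Among all 10223 measured genes the counts were 817, 563, 592 and 569 in that order, against 540 in the main setting. Without the filter on dim probes 4 of 41 carriers were higher, against 2476 of 20655 genes. At 1.5-fold 2 carriers were higher, against 13.8% of all genes. The count at least 2-fold lower was 0, and it was 1 after normexp (Slc25a5), 3 after quantile normalization and 3 in the value table (Slc25a16, Slc25a36 and Slc25a40 in both). Among all 10223 measured genes the counts were 257, 436 and 433 in that order, against 454 in the main setting. Without the filter 1 of 41 carriers was lower, against 659 of 20655 genes. At 1.5-fold 9 of 23 carriers were lower, against 17.7% of all genes. Without the filter, all calls belonged to carriers not well above background on both arrays (Slc25a18, Slc25a21, Slc25a34 and Slc25a48 higher, Slc25a53 lower). The median difference of -0.30 became -0.035 after normexp, -0.13 with detected probes, -0.15 in the value table and -0.047 without the filter, where 41 carriers enter, and stayed within the spread between spots under the other 4 alternatives. Of 177 single values under the alternatives, 65 moved by more than that spread. Of these, 23 came from the percentile of detected probes, which raised every gene by the same 0.18. Without the filter, with the minimum signal and with the median over probes 0 moved, as most values there are the main ones by design. The share that moved therefore does not measure how stable the carriers are. The cause of the other shifts was not tested. Signal over background limits carriers under about 100 units. No paired analysis was possible because each group holds 1 array.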
